A study of Mus musculus with 4 samples.

Results

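The peaks described here were the very wide ones of a chromatin immunoprecipitation sequencing (ChIP-seq) experiment, chosen by width: every peak of 1000 bp or more in either of the 2 deposited peak lists. There were 58 such peaks among the 34209 of the MIZ-1WT list, 0.17% (95% Wilson interval 0.131 to 0.219%), and 853 among the 78357 of the MIZ-1DPOZ list, 1.089% (1.018 to 1.164%), so 911 of 112566 in all. Width chose the peaks, so their widths and the summit heights that go with width are given below as descriptions only. Wilson intervals here and elsewhere cover counting error only.

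The immunoprecipitation used the H-190 antibody to MIZ-1 on B220+ splenocytes of young adult mice on a C57BL/6 background, a fraction sorted for a surface marker of B cells. MIZ-1WT cells carried an intact Miz-1 gene. MIZ-1DPOZ cells came from a cross of MB1-cre with Miz-1floxedPOZ mice, in which Cre, active in B lineage cells, had deleted the part that encodes the POZ domain, so that a truncated MIZ-1 with its zinc fingers remained. Each genotype had 1 ChIP library and 1 input library, with no replicate, so every difference between genotypes given here compares 2 libraries and has no test. How many animals were pooled per library is not given in the sources used here, and a list of peaks holds no marker by which the identity of the cells could be checked.

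MIZ-1, encoded by Zbtb17, is a zinc finger transcription factor whose amino-terminal POZ domain serves for multimerisation and for contact with partner proteins, and it is known for binding near the start sites of genes. Such start sites often lie in CpG islands, stretches of GC-rich DNA that keep the CpG dinucleotide which most of the mammalian genome has lost. GC-rich and CpG-rich DNA also occurs in repeats. LINE-1 retrotransposons of the mouse begin with an array of tandem monomers that acts as their promoter and is followed by a pair of open reading frames, while major satellite is an AT-rich tandem repeat packed around centromeres, and ribosomal RNA genes stand in many near-identical copies of which an assembly shows few.

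A usual limit on base composition for CpG islands did not separate these kinds of DNA, so sequences are shown first, and the counts after them. All were read from the GRCm38 assembly, which is the same as the mm10 build of the peak lists, and are written 5′ to 3′ in lower case with each CpG dinucleotide in capitals. The first 4 are single repeat units of the families that held most of the wide peaks, each turned so that the long reading frame beside its array lies downstream. They came from chrX:91841705-91841916, chr6:67006696-67006903, chr6:56246850-56247055 and chr3:66634436-66634649, all on the minus strand, and hold 13, 13, 16 and 14 CpG dinucleotides.

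212 bp unit: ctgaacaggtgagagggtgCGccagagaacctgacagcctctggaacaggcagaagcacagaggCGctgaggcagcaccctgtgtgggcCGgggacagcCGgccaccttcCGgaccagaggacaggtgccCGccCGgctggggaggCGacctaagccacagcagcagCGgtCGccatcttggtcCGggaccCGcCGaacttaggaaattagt
208 bp unit: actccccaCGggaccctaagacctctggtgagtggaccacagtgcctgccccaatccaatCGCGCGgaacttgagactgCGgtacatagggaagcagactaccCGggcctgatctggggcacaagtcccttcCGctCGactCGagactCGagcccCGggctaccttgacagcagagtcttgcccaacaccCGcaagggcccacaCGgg
206 bp unit: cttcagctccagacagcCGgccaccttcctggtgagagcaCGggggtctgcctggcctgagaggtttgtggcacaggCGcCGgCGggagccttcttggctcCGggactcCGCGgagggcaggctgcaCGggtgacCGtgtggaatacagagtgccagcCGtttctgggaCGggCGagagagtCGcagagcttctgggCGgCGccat
214 bp unit: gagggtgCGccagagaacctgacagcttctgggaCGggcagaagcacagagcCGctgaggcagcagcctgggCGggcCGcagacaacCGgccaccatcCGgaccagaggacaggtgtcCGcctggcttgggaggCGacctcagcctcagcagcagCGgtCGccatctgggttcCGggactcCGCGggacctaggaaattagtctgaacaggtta

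The 212 bp and 214 bp units were related, with 190 identical bases over an alignment of 212, while the 208 bp unit aligned to each of the others over no more than 9 bases. The next 3 sequences stand for the rest of the wide peaks. The first is a unit of an AT-rich array at the start of the assembled chromosome 9 (chr9:3037790-3038023, plus strand, within the lincRNA gene Gm26870), with 7 CpG dinucleotides. The next is 105 bases, or 5 units, of a 21 bp repeat (chr2:51554400-51554504, plus strand, outside genes), with 0 CpG. The last is the 250 bases before the start site of Pik3r1 (chr13:101768218-101768467, minus strand, from the RefSeq promoter table for GRCm38), a CpG island found once in the assembly, with 30 CpG dinucleotides.

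234 bp unit: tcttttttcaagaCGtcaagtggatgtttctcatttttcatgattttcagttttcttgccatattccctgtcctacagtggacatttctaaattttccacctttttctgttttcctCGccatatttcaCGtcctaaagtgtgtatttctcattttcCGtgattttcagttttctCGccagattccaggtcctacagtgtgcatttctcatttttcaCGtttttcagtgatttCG
21 bp repeat: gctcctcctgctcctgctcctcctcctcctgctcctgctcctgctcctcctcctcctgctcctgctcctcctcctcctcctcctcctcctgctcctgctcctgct
Pik3r1 promoter: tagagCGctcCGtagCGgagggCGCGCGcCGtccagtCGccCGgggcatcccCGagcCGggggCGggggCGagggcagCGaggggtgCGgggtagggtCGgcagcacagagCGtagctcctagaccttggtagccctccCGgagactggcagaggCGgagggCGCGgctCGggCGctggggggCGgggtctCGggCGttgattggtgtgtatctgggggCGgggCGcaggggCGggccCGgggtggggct

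The GC contents of the 212 bp unit and the Pik3r1 promoter were 65.57% and 76.4%, and both would pass a limit of 50% GC. What set them apart was how often each occurs. The peak that holds the 212 bp unit is built of 50-base words found a median of 1170 times in the assembly, and the peak at Pik3r1 of words found once.

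Summit heights were higher in the wide peaks than in the lists they came from, as follows from the choice by width. The summit pileup is the number of fragments over the summit, recovered from the deposited fold enrichment and p-value. It ranged from 15 to 296 with a median of 22 in wide MIZ-1WT peaks (9 over all peaks), and from 11 to 346 with a median of 59 in wide MIZ-1DPOZ peaks (12 over all peaks). The median width was 1132.5 bp against 177 bp over all MIZ-1WT peaks, and 1199 bp against 225 bp over all MIZ-1DPOZ peaks. The local background is the number of fragments expected at the summit by the model behind the fold enrichment. Whether it came from the input or from the ChIP library itself was not established here. If from the ChIP library, it can include fragments of the peak itself. Its median was 2.58 in the wide MIZ-1WT peaks (0.873 over all) and 6.35 in the wide MIZ-1DPOZ peaks (1.38 over all). The background was thus higher at wide peaks too, and the fold enrichment differed less between wide peaks and the rest, with medians of 6.17 against 4.84 and of 7.83 against 5.11. The lowest background in either list, a floor set by the number of fragments and their length, was 0.860 for MIZ-1WT and 1.35 for MIZ-1DPOZ.

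Both lists show a ceiling of the pileup at 296 and 346 fragments, exactly 2 times the smallest width in each list, 148 and 173 bp. Within 3% of it stood 6 wide MIZ-1WT peaks and 8 wide MIZ-1DPOZ peaks, of 21 and 27 peaks in the whole lists. The heights of those peaks cannot be ordered.

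Wide peaks lay mostly in sequence with many copies in the assembly. In the MIZ-1WT list, 51 of 58 (87.9%, interval 77.1 to 94.0%) consisted of 50-base words with a median of 2 or more copies, against 48.9% of all peaks of that list. In the MIZ-1DPOZ list it was 792 of 853 (92.8%, 90.9 to 94.4%) against 42.8%. The median number of copies was 573 and 955.5, where it was 1 over all peaks of either list. The soft mask of the assembly, which marks interspersed repeats and low-complexity DNA, covered over 50% of the bases in 55 and 781 wide peaks, against 61.0% and 55.9% of all peaks. The mask thus marked many narrow peaks too, whereas copy number differed more between the wide peaks and the rest.

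By a search for DNA that repeats itself at a shift of 20 to 500 bases, 56 of the 58 MIZ-1WT peaks and 803 of the 853 MIZ-1DPOZ peaks (94.1%) were tandem arrays. A further 13 MIZ-1DPOZ peaks were multi-copy without being tandem. Single-copy CpG-island promoters came to 1 peak of the MIZ-1WT list, 1.72% (0.305 to 9.14%) against 20.2% of all peaks, and to 31 of the MIZ-1DPOZ list, 3.63% (2.57 to 5.11%) against 13.6%. The last 1 and 6 peaks were single-copy DNA outside such promoters. No wide peak matched mitochondrial DNA over more than 3.2% of its bases.

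**Figure D1:**
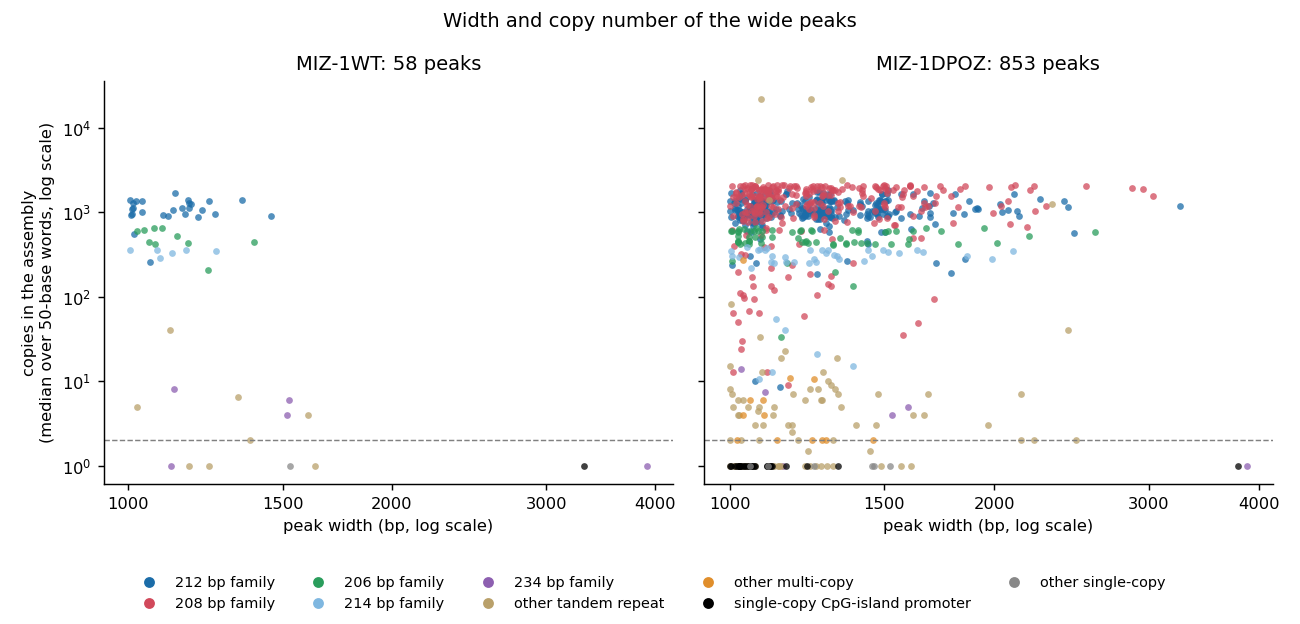
Width (horizontal, bp, log scale) and number of copies in the assembly (vertical, median over 50-base words, log scale) of each wide peak, coloured by its sequence class, with the limit of 2 copies as a dashed line. In both lists most points lie between 100 and 2000 copies, whereas the single-copy CpG-island promoters lie at 1 copy and, apart from the peak at Gm26917, at widths up to 1329 bp.

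The usual limits for a CpG island did not tell promoters from repeats. With GC of 50% or more and an observed over expected CpG of 0.6 or more, 28 in MIZ-1WT (48.3%, against 36.8% of all) and 359 in MIZ-1DPOZ (42.1%, against 27.2%) had CpG-island composition. Of the 28, 27 were tandem arrays with many copies, and of the 359, 318 were tandem arrays and 6 were other multi-copy DNA. These limits as the sign of a promoter would thus give 359 MIZ-1DPOZ peaks, of which 31 were single-copy promoters. The CpG ratio of the 4 monomer families described next ran from 0.48 to 0.72 and that of the single-copy promoters other than Gm26917 from 0.73 to 1.07, so these ranges did not overlap. Nor did their GC contents, at 60.7 to 67.6% and 69.7 to 81.4%. The CpG ratio of the other tandem arrays ran from 0 to 2.59 across both.

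**Figure D2:**
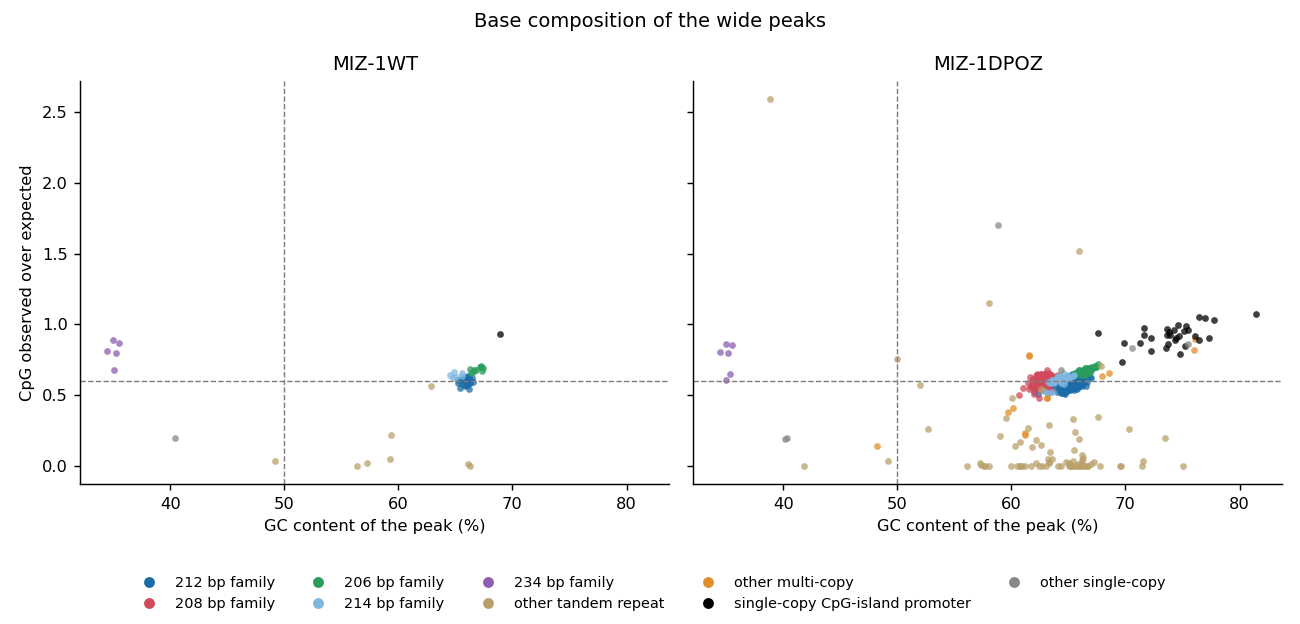
GC content (horizontal, %) and CpG observed over expected (vertical) of each wide peak by list, coloured by sequence class, with the limits of 50% and 0.6 dashed. The monomer families straddle the limit of 0.6 at GC contents of about 61 to 68%, and the single-copy promoters lie to the upper right, at GC contents of 67.6% and above.

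Grouped by shared 12-base words, 759 of the 911 wide peaks fell into 4 families of GC-rich monomers, named here by the period found most often: 212, 208, 206 and 214 bp. They held 43 of the 58 in MIZ-1WT (74.1%, 61.6 to 83.7%) and 716 of the 853 in MIZ-1DPOZ (83.9%, 81.3 to 86.3%). The 212 bp family was the largest, with 27 MIZ-1WT and 324 MIZ-1DPOZ peaks. The 206 bp family had 10 and 68, and the 214 bp family 6 and 42. The 208 bp family stood out by its absence from the MIZ-1WT list: 282 MIZ-1DPOZ peaks belonged to it and 0 MIZ-1WT peaks did. That list did hold 1477 peaks of the 208 bp family below the width limit, the widest of 962 bp, and 0 of 1477 allows a share of up to 0.203% at a count of 3 (Wilson upper limit 0.259%).

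The 4 families shared an arrangement that their choice did not use. Within 8000 bp of the peak, 613 of the 759 (80.8%, 77.8 to 83.4%) had an open reading frame of 1000 codons or more that pointed away from it, and 5 had a frame that pointed toward it. By list it was 39 of 43 and 574 of 716, and over all wide peaks 39 of 58 and 577 of 853, against 10.7% and 5.92% of all peaks of the lists. In 545 of the 759 the longest such frame had exactly 1281 codons, and among peaks with a long frame the median gap from the edge of the peak to it was 1429 bp. Monomers that open an element and long frames that follow on a single side are the layout of the LINE-1 elements described above, but no repeat annotation was given, so the elements are not named here beyond that.

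The arrays themselves had similar median lengths in the 212 and 208 bp families. Those of the 212 bp family had a median of 1359 bp, or 6.41 units, in a range of 938 to 5217 bp. Those of the 208 bp family had a median of 1345 bp, or 6.46 units, in a range of 785 to 5730 bp. The choice by width sets these lengths in part. A peak of the 212 bp family covered a median of 91.4% of its array in the MIZ-1DPOZ list and 78.9% in the MIZ-1WT list. The width of these peaks was therefore close to the length of the array beneath. Family members lay on 20 different chromosomes for each of the 212, 208 and 206 bp families and on 14 for the 214 bp family. On chromosome X lay 82 of the 853 wide MIZ-1DPOZ peaks (9.61%) against 5.08% of all peaks of that list, and 3 of the 58 MIZ-1WT peaks (5.17%) against 5.03%.

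Few of these arrays were near a gene's start. Only 25 of the 759 lay in a promoter window, from 2000 bp before to 1000 bp after a start site. The summits of 234 lay within a gene, none of them in an exon. Over all peaks, 14.9% of MIZ-1WT and 15.3% of MIZ-1DPOZ summits lay in an exon. Genes and exons were scored at the summit, so other bases of a peak can cover an exon. The median distance to a start site was 28682 bp in the 212 bp family and 35780.5 bp in the 208 bp family. Over all wide peaks the promoter window held 9 of 58 (15.5%, 8.38 to 26.9%), against 26.2% of all peaks, and 72 of 853 (8.44%, 6.76 to 10.5%), against 21.6%. Genes held the summits of 27 of 58 (46.6%, 34.3 to 59.2%), against 52.1%, and of 306 of 853 (35.9%, 32.7 to 39.1%), against 51.8%. The shares of the whole list lay outside the intervals in MIZ-1DPOZ and inside them in MIZ-1WT.

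The widest arrays were single long runs of monomers. The widest of the 212 bp family was chrX:91841116-91844367, of 3252 bp, 15325 bp from the start of Gm14782, with a summit pileup of 77 in MIZ-1DPOZ cells. In MIZ-1WT cells the same array carried 4 separate peaks, with a highest pileup of 23 and a largest width of 768 bp. The widest of the 208 bp family was chr6:67006516-67009549, of 3034 bp, across the start of the antisense RNA gene Gm36816 inside Gng12, a G protein gamma subunit gene. It had a pileup of 53 against at most 12 in MIZ-1WT cells, where the widest of 3 overlapping peaks was 148 bp wide. In both places the MIZ-1WT peaks were narrow pieces of the stretch that a single MIZ-1DPOZ peak spanned.

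Most wide peaks overlapped the other list at some base. Of the 853 wide MIZ-1DPOZ peaks, 810 (95.0%, 93.3 to 96.2%) had a counterpart in MIZ-1WT, an overlap of 1 bp or more, against 22.1% of all peaks of that list, and 413 overlapped 2 to 4 of them. All 58 wide MIZ-1WT peaks overlapped a MIZ-1DPOZ peak, against 53.7% of all. The counterpart was itself 1000 bp or wider for 57 of the 58 but for 57 of the 853. Other definitions lowered the share of MIZ-1DPOZ peaks with a counterpart, to 57.3% with 50% of the wide peak covered, 43.3% with summits within 100 bp and 34.6% with 50% of both peaks, and for MIZ-1WT peaks summits within 100 bp gave 36.2%. The pairs had median widths of 1210 bp in MIZ-1DPOZ and 522.5 bp in MIZ-1WT, a difference that the choice by width sets in part. Over all 17352 overlapping pairs, chosen without regard to width, the medians were 345 and 209 bp and the MIZ-1DPOZ peak was the wider in 14866. Of the 43 without a counterpart, 28 were of the 208 bp family.

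**Figure D3:**
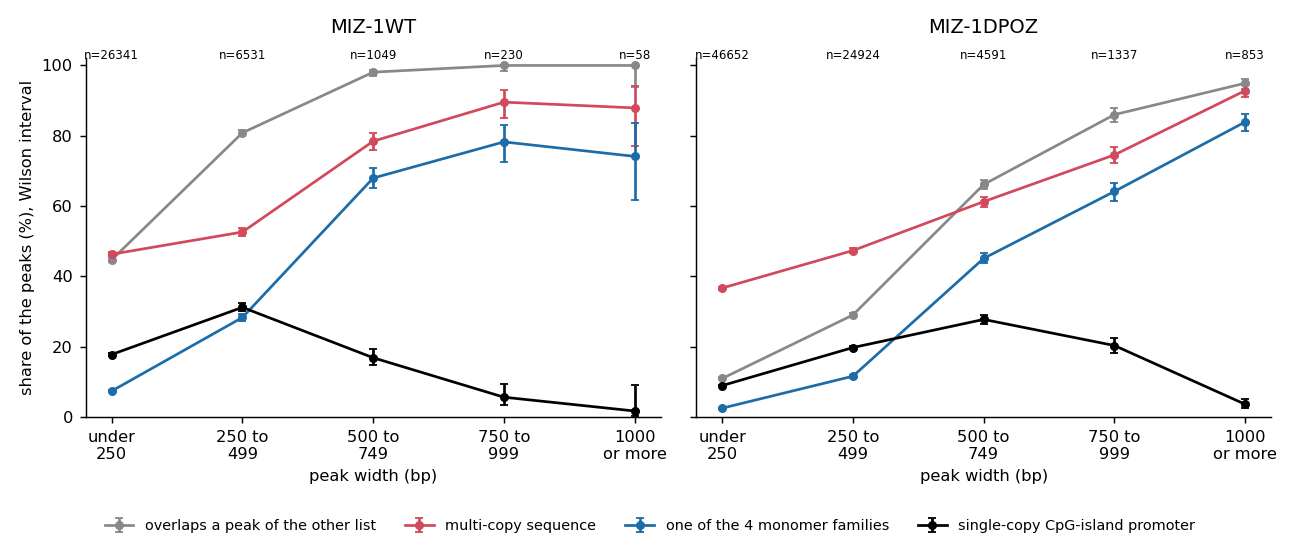
Share of peaks (vertical, %, with 95% Wilson intervals) that overlapped the other list, lay in multi-copy sequence, belonged to 1 of the 4 monomer families or were single-copy CpG-island promoters, over 5 bins of peak width (horizontal, bp), with the number of peaks above each bin. Single-copy promoters were most frequent in the middle bins, 31.2% at 250 to 499 bp in MIZ-1WT and 27.8% at 500 to 749 bp in MIZ-1DPOZ, and the families were most frequent at 750 to 999 bp in MIZ-1WT (78.3%) and at 1000 bp or more in MIZ-1DPOZ (83.9%).

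The mixture of sequences changed with width below the limit of 1000 bp as well as across it. Among MIZ-1WT peaks the 4 families made up 7.40% of those under 250 bp, 28.3% at 250 to 499 bp and 68.0% at 500 to 749 bp. In the MIZ-1DPOZ list the same bins held 2.53%, 11.6% and 45.1%. Peaks just inside the limit were 1003, 1004 and 1007 bp wide in MIZ-1WT, all of the 212 or 214 bp families, and 1000, 1001 and 1002 bp wide in MIZ-1DPOZ, a 21 bp repeat, an array of the 208 bp family and the promoter of Ulk2, a kinase of autophagy initiation. Just outside lay MIZ-1WT peaks of 992, 990 and 989 bp, tandem arrays with periods of 212, 212 and 24 bp, and 3 MIZ-1DPOZ peaks of 999 bp, at the promoter of Nf1, a negative regulator of RAS, and in arrays with periods of 206 and 212 bp. Tandem arrays and CpG-island promoters thus occurred on both sides of the limit in MIZ-1DPOZ, but in different shares over the bins: from 750 to 999 bp the single-copy promoters made up 20.3% (18.3 to 22.6%) and the 4 families 64.2% (61.6 to 66.7%), against 3.63% and 83.9% at 1000 bp or more. In MIZ-1WT the same shares were 5.65% and 78.3% below the limit and 1.72% and 74.1% above it, with intervals that overlapped.

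Pileups over the monomer arrays were higher in MIZ-1DPOZ cells at every wide MIZ-1WT peak of the 4 families. At these 43 places the MIZ-1WT pileups ran from 15 to 27 with a median of 20, and the MIZ-1DPOZ pileups from 47 to 93 with a median of 73, so that the ranges did not overlap. The median ratio was 3.52, and the median ratio of the fold enrichments, which take the local background into account, was 1.28. Pileups were not scaled for the number of fragments in the library or for their length. The fold sets the pileup against the local background, which was higher at these arrays in MIZ-1DPOZ as well. That background may hold fragments of the ChIP library itself, so it is not read as an independent control. Of the other 15 wide MIZ-1WT peaks, 6 stood at the ceiling, so no ratio is given for them.

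Seen from the MIZ-1DPOZ list, the ratio of pileups had a median of 3.45 over the 810 pairs, and the ratio of local backgrounds 3.06. Over all 17352 overlapping pairs of the lists the same medians were 1.69 and 1.61. The lowest backgrounds of the whole lists, which go with the number of fragments and their length, were 0.860 in MIZ-1WT and 1.35 in MIZ-1DPOZ. The 212 bp family had medians of 68 fragments in MIZ-1DPOZ and 19 in MIZ-1WT, a ratio of 3.42, and was higher in 323 of 323 pairs. The 208 bp family had 52 and 13, a ratio of 3.81, and was higher in 254 of 254. For the 206 bp and 214 bp families the ratios were 3.76 and 3.62. The ratio of fold enrichments was 1.34, 1.52, 1.31 and 1.38 for the 4 families in that order, against 1.19 over all pairs. Members were chosen for width in the MIZ-1DPOZ list, which favours high pileups on that side. The 1394 narrower MIZ-1DPOZ peaks of the 212 bp family with a counterpart had median pileups of 55 and 15, with median ratios of 3.54 in pileup, 2.42 in background and 1.77 in fold, where the wide ones had 3.42, 3.10 and 1.34. How the study handled reads that map to many places is not given in the sources used here, and its part in these ratios was not tested.

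**Figure D4:**
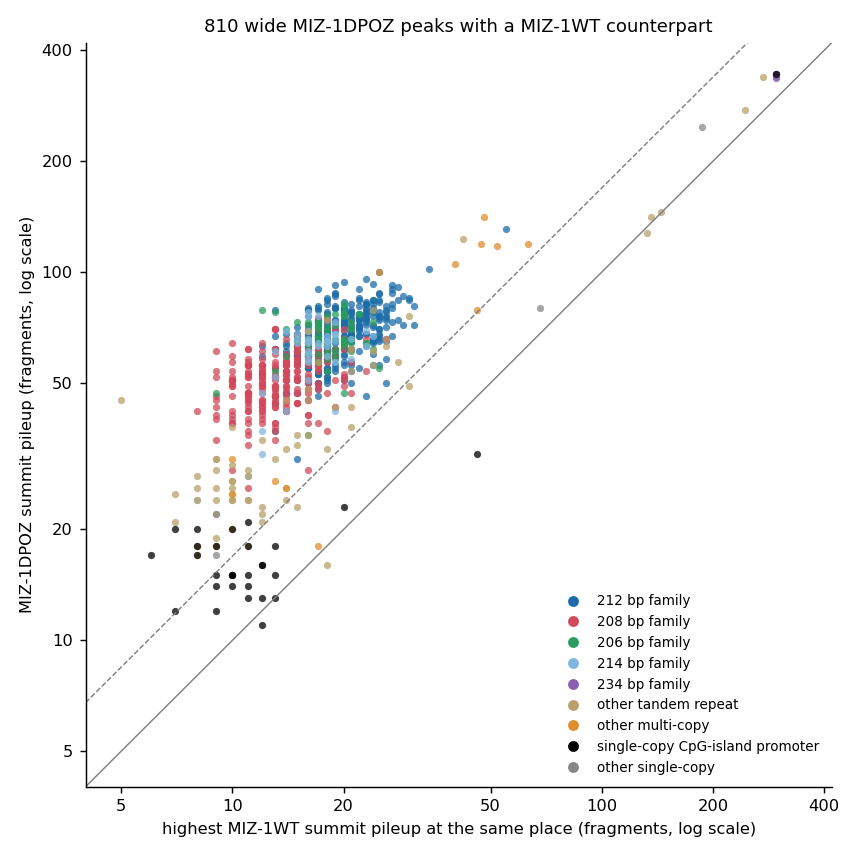
Summit pileup of each wide MIZ-1DPOZ peak with a counterpart (vertical, fragments, log scale) against the highest MIZ-1WT pileup at the same place (horizontal, fragments, log scale), coloured by sequence class. The solid line marks equal pileups and the dashed line the median ratio of all overlapping pairs, 1.69. The monomer families lie above the dashed line, the single-copy promoters lie on both sides of it, and the peaks at the ceiling lie near the solid line.

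The 208 and 212 bp families differed in how many of their peaks were wide. Counting peaks of every width, the 212 bp family had about equal numbers in both lists, 2102 in MIZ-1WT and 2010 in MIZ-1DPOZ, with 1.28% and 16.1% of them wide. The 208 bp family had 1477 and 3473 peaks, of which 0 and 8.12% were wide, and its median width was 234 and 457 bp. All MIZ-1WT peaks of the 212 bp family had a counterpart, and so did 99.2% of those of the 208 bp family. In the other direction it was 85.4% of the MIZ-1DPOZ peaks of the 212 bp family and 35.9% of those of the 208 bp family. The 214 bp family was like the 208 bp family here, with 646 and 1610 peaks and a counterpart for 34.8% of those in MIZ-1DPOZ. In both of these families most MIZ-1DPOZ peaks thus had no MIZ-1WT peak at the same place, although the share with a counterpart was above the 22.1% over all peaks of the list.

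Summits did not fall evenly along the unit. In the 212 bp family a stretch of 80 bases, chosen on the wide MIZ-1DPOZ peaks as the stretch with most summits, held 258 of 324 of them (79.6%), where 37.7% of the unit's length would be an even spread. The same stretch held 22 of 27 summits of the wide MIZ-1WT peaks (81.5%, 63.3 to 91.8%) and, among peaks under 1000 bp, 1640 of 2074 in MIZ-1WT (79.1%, 77.3 to 80.8%) and 1290 of 1677 in MIZ-1DPOZ (76.9%, 74.8 to 78.9%). These last 3 groups had no part in the choice of the stretch. It reads as follows, with each CpG in capitals and 6 CpG among its 80 bases.

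80 bases of the 212 bp unit: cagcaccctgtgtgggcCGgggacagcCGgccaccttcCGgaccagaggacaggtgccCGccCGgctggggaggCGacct

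In the related 214 bp family the stretch chosen in the same way held 29 of 42 wide MIZ-1DPOZ summits (69.0%), 62.2% of narrower MIZ-1WT summits and 70.5% of narrower MIZ-1DPOZ summits, but 1 of the 6 wide MIZ-1WT summits. In the 208 bp family the shares were closer to an even spread, which would be 38.5%: 47.9% of the wide MIZ-1DPOZ summits and 44.4% and 29.0% of the narrower summits in MIZ-1WT and MIZ-1DPOZ. In the 206 bp family they were 54.4%, 50.4% and 32.5%, and 7 of 10 for the wide MIZ-1WT peaks. A fixed position of the summit on the unit was thus seen in the 212 and 214 bp families in both lists, and in the 208 and 206 bp families the narrower MIZ-1DPOZ peaks did not share the stretch of the wide ones. How reads were placed among near-identical units is not given in the sources used here, and its part in the position of summits was not tested.

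**Figure D5:**
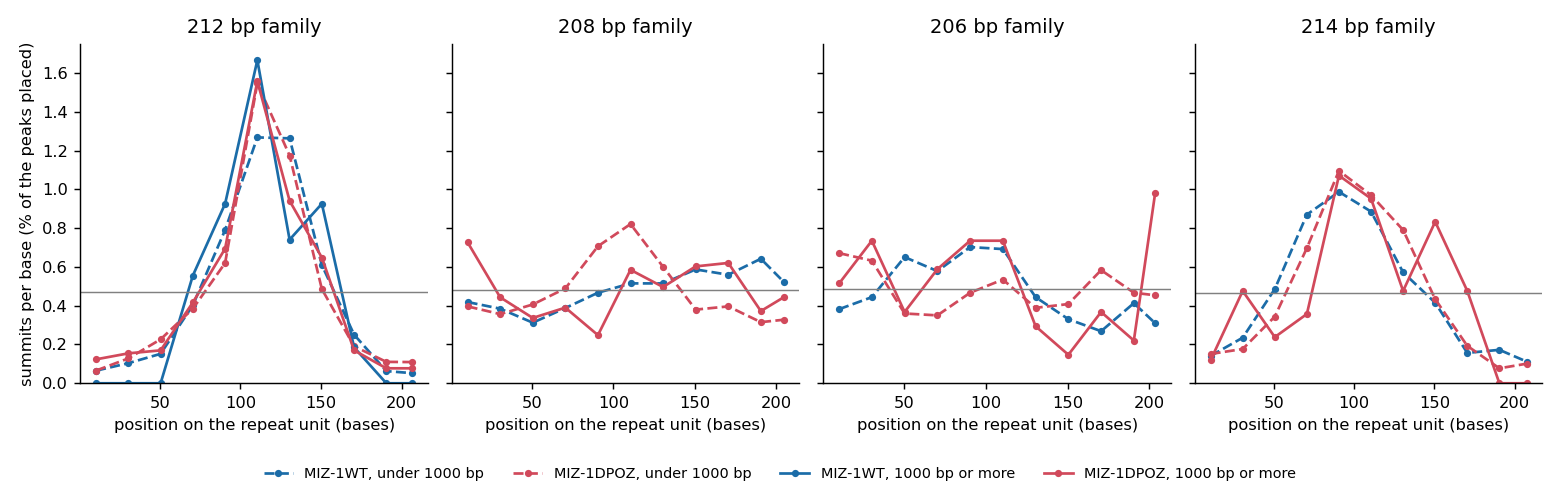
Density of summits (vertical, % of the placed peaks per base) along the repeat unit (horizontal, bases) for the 4 monomer families, in bins of 20 bases, by list (colour) and by width (solid for 1000 bp or more, dashed for narrower). The horizontal line marks an even spread, and groups of under 20 peaks are not drawn. In the 212 bp panel all 4 lines peak in the same stretch, which holds 76.9 to 81.5% of the summits.

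Tandem arrays outside the 4 families were fewer and of another kind. There were 13 of them in MIZ-1WT and 87 in MIZ-1DPOZ. Of these, 5 and 70 had periods under 100 bp. The search started at a shift of 20 bases, so a shorter period could not be reported, and whether these arrays have shorter units was not tested. The printed 21 bp repeat consists of gct and cct alone. The median CpG ratio of the 5 and 70 arrays was 0.03 and 0.02. They were thus GC-rich (medians of 62.9% and 65.1%) but nearly without CpG, as the printed repeat shows. Of the 70, 42 had their summit in a gene, and 41 of those in an intron. The 70 had a median pileup of 28.5, and the MIZ-1WT counterparts of 63 of them had 12. The median ratio of these pairs was 2.42, and 61 of 63 were higher in MIZ-1DPOZ. Their ratio was thus lower than that of the monomer families and higher than that over all pairs.

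Among tandem arrays outside the 4 families, of any period, were some of the highest scores of the wide peaks. At chr4:118547143-118548747, an array with a period of 44 bp that lies 3415 bp from the start of Tmem125, the pileup was 273 in MIZ-1WT and 339, which is at the ceiling, in MIZ-1DPOZ, and the −log10 q was 163 and 177. At chr6:29747794-29749029, with a period of 189 bp in an intron of the gene of the Hedgehog signal transducer Smo, it was 145 and 146 with −log10 q of 109 and 111. At chr9:124256329-124257963, a 31 bp repeat outside genes, the pileups were 133 and 128. At chr17:13551775-13553152, with a period of 119 bp within 2700054A10Rik, they were 244 and 276, and the MIZ-1DPOZ peak was 2479 bp wide against 1378 bp. These arrays were high in both lists, and at the first of them the ceiling allows no comparison of heights.

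The AT-rich arrays formed a small family of their own, with a period of 234 bp and a GC content of 35.1%. It had 5 peaks in MIZ-1WT and 6 in MIZ-1DPOZ, near the first base of the assembled chromosome 9, at Gm10800 on chromosome 2 and at Gm21738 on chromosome 14. All 5 MIZ-1WT pileups were at the ceiling of 296, and the 6 MIZ-1DPOZ pileups ran from 337 to 346. The median local background was 133 and 148 fragments, and the fold enrichments had medians of 2.21 and 2.30. Since the pileups stood at or near the ceilings and the background may be capped too, these folds are not read as limits. The widest peak of either list belonged here, chr14:19415719-19419634, of 3916 bp in MIZ-1WT and 3881 bp in MIZ-1DPOZ, across the start of Gm21738, with folds of 2.88 and 3.11. The places on chromosomes 2 and 14 lay 95616227 and 16415718 bp from the first assembled base, inside the chromosomes. An AT-rich tandem repeat is what major satellite is known to be, and no repeat annotation was given to name it here. The words of these peaks had few copies in the assembly (median of 4), in which most satellite is not placed, so a count of copies in an assembly can miss sequence that the genome holds in many.

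Copy count and local background also disagreed at the widest GC-rich peak. It lay at chr17:39843066-39846381 in MIZ-1WT, of 3316 bp, and at chr17:39843065-39846854 in MIZ-1DPOZ, of 3790 bp, over the exon of the lincRNA gene Gm26917 and, in both lists, into the RefSeq gene Rn18s-rs5 (18S RNA, related sequence 5). By its words it was single-copy, with a GC content of 68.9% and a CpG ratio of 0.93, and it is the sole MIZ-1WT peak in the class of single-copy CpG-island promoters. Its pileups stood at the ceilings of 296 and 346, and its local background was 132 and 171 fragments. Its fold, again not read as a limit, was 2.23 and 2.01. No other single-copy promoter had a local background above 2.08 or a pileup at the ceiling, which set it apart from the other promoters. Without it the MIZ-1WT list had 0 wide single-copy CpG-island promoters among its 58 peaks, which allows a share of up to 5.17% at a count of 3.

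The other 30 single-copy CpG-island promoters were all wide in MIZ-1DPOZ only. Their widths ran from 1002 to 1329 bp, their GC contents from 69.7 to 81.4% and their soft-masked shares from 0 to 19.9%, and 28 of the 30 peaks contained the start site. Their summits were low, with pileups of 11 to 32 and a median of 15.5, where the monomer families had 24 to 131. In MIZ-1WT cells, 29 of the 30 had a counterpart of 148 to 776 bp with a pileup of 6 to 46 and a median of 10. Among single-copy CpG-island promoter peaks of every width in MIZ-1DPOZ, 47.2% had a counterpart. The median ratio of pileups was 1.50, below the 1.69 over all pairs, and the ranges of the libraries overlapped. These summits were lower than those of the monomer arrays but higher than the median of 12 over all 10685 single-copy CpG-island promoter peaks of that list.

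The widest were those of Pik3r1, the regulatory subunit of phosphatidylinositol 3-kinase, of 1329 bp, and of the divergent pair Ash1l, a histone methyltransferase, and Dap3, a mitochondrial ribosomal protein, of 1224 bp. At Pik3r1 the pileup was 13 in MIZ-1DPOZ and 12 in MIZ-1WT, where the peak was 170 bp wide. At Ash1l and Dap3 it was 12 and 7. Map4k4, a kinase upstream of stress signalling, had a peak of 1160 bp with 14 against 10 fragments. The widths in MIZ-1DPOZ were fixed by the choice of peaks and are not compared with the heights.

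Ranbp9, which encodes a Ran-binding scaffold protein, had the highest pileup of the 30 in both lists, and it was lower in MIZ-1DPOZ, with 32 fragments against 46 and a fold enrichment of 11.5 against 17.1. It was also lower at Iqsec1, an exchange factor for ARF GTPases, with 11 against 12, and equal at Rbpms, an RNA-binding protein gene, with 13 in each. In the other 26 with a counterpart the MIZ-1DPOZ pileup was the higher. At Neto2, an auxiliary subunit of kainate receptors, it was 20 against 8, at the deubiquitinase gene Otud1 20 against 10 and at Tusc1 21 against 11. Lrig1, a negative regulator of ERBB receptors, was the 1 promoter of the 30 with no MIZ-1WT peak. Rbpms and Lrig1, and further on Macf1 and Duxf3, were named after their values were seen.

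The remaining promoters among the 20 widest were those of Lonrf2, Zbtb7c, Naa30, Bzw1, Acvr1 with Upp2, Macrod2, Hdac7, Ccsap, Arhgap20, Cnn3 and Rassf8, with MIZ-1DPOZ pileups of 12 to 18 and MIZ-1WT pileups of 8 to 12. They include Zbtb7c, which like MIZ-1 is a zinc finger protein with a POZ domain, the BMP receptor gene Acvr1 and the histone deacetylase gene Hdac7. None of the genes in the 5 lists kept for this study had a wide peak at its promoter in either list: 0 of 47 genes of B cell identity and B cell receptor signalling, 0 of 86 cytosolic ribosomal protein genes, 0 of 110 histone genes, 0 of 31 immediate early and MYC network genes and 0 of 17 vesicle and autophagy genes tied to MIZ-1. With 72 wide MIZ-1DPOZ peaks in promoter windows among 55450 annotated genes, nothing is read from these counts. Pik3r1 and Ulk2, which act in these pathways, were not on those lists.

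CpG islands also occurred among the wide peaks away from start sites. At chr5:92941688-92943140, 1453 bp within Shroom3, a cytoskeletal regulator, the GC content was 70.6% and the CpG ratio 0.84 at a distance of 43695 bp from the nearest start, with a pileup of 17 against 9. At chr4:123686595-123687700, 2235 bp from a start of Macf1, which links microtubules to actin, it was 22 against 9. Both were single-copy and looked like the promoters above in composition and height.

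A wide single-copy peak of another kind lay at chr15:75085493-75087023 in MIZ-1WT and chr15:75085497-75087020 in MIZ-1DPOZ, 6399 bp from the start of Gm28502. Its GC content was 40.4%, with a CpG ratio of 0.19, and its pileups were 187 and 248, with −log10 q of 122 and 180, the highest value among wide MIZ-1DPOZ peaks. The local background was 16.1 and 17.9 fragments and so above that of the promoters. It was the sole wide MIZ-1WT peak that was single-copy, not tandem and not CpG-rich.

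The 13 multi-copy peaks without tandem repeats were all wide in MIZ-1DPOZ only. A pair lay at neighbouring loci of chromosome 10, at AW822073 (chr10:58223985-58225440) and at Duxf3 (chr10:58231802-58233041), a homeobox gene active at the onset of embryonic transcription and present in several copies. Their pileups were 119 and 105, against 47 and 40 in MIZ-1WT. Another pair, at Gm21887 on chromosome X and Gm47283 on chromosome Y, had words found 2 times each and pileups of 118 and 119 against 52 and 63. Its GC contents were 61.5% and 61.6%, and none of its words was found only once. Whether the places share a sequence was not tested, so they are not read as separate observations. Over the 12 with a counterpart the median ratio was 2.38, between that of the single-copy promoters and that of the monomer families.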

How the data were processed

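ChIP-seq for MIZ-1 was performed on B220+ splenocytes, with 1 ChIP and 1 input library per genotype. Per the labels, the authors' processing notes name Bowtie2 2.2.6, MACS2 2.1.0 and mm10. The study's methods name Trimmomatic, bwa and another MACS2 release, and which of these made the lists is not known. The authors called narrow peaks for each genotype. Whether the input served as control for these lists was not established here. For each peak the deposited values are a fold enrichment, which is a ratio, and the −log10 of a p-value and of a q-value. The q cutoff and how reads with several places or duplicates were handled are not given in the sources used here. Smallest −log10 q was 1.03 and 1.01. The number of reads is not in these lists, and reads and input libraries were not analysed here. The lowest background, 0.860 in MIZ-1WT and 1.35 in MIZ-1DPOZ, rises with the number of fragments and with their length. The product of these thus differed between the libraries, and pileups and their ratios were not scaled for it.

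The peaks, lists and tests were chosen with earlier results of these data known. Pileup and local background were recovered by solving a Poisson model for the fold enrichment and p-value that the authors deposited. The search ran over whole numbers of fragments only, and a value was recovered for all 34209 and 78357 peaks. Simulated data drawn from the same model tested the solving, not how well the model suits the lists. Copies are the median count in GRCm38 of 50-base words taken every 25 bases, on both strands. A tandem repeat has over 50% of its bases in 100-base windows that match themselves at 80% or more after a shift of 20 to 500 bases. Families join peaks that share 40% of their 12-base words and have at least 10 members. Peaks of every width joined a family at 50% of words. Genes came from the GENCODE M21 basic annotation (77258 start sites, 55450 genes). A counterpart overlaps by 1 bp or more. Where several did, the highest pileup and the largest width among them were each taken, not always from the same peak. Positions are 1-based. No test was made, as 1 library per genotype gives no spread, and intervals are Wilson intervals at 95%. Named were, per list, the 5 widest and the 5 with the highest −log10 q, the 3 widest of each class, the 20 widest single-copy promoters, and the 3 peaks on either side of the width limit. Of these, 1 peak is not reported here. Python 3.11.15, NumPy 2.4.6, pandas 2.3.3, Biopython 1.88, BLAST 2.17.0 and matplotlib 3.10.9 were used.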

Additional observations from a re-analysis of the deposited data

How the results depend on the processing

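Of 62 alternatives, 28 left a value within its interval or within 1.5 times the count, and 34 moved it. A turn of direction was not assessed. The number of wide peaks was set by the limit: at 750, 1500 and 2000 bp there were 288, 7 and 2 in MIZ-1WT and 2190, 144 and 37 in MIZ-1DPOZ, with a limit of 7 times the smallest width 417 in MIZ-1DPOZ, and with peaks under 200 bp apart joined 166 in MIZ-1WT. The multi-copy share of MIZ-1DPOZ was 81.7%, 96.5% and 94.6% at 750, 1500 and 2000 bp, 89.2% and 86.0% at a limit of 5 and 10 copies, and 95.7% with tandem arrays counted in. In MIZ-1WT it was 42.9% and 0.0% at 1500 and 2000 bp, 94.8% by the soft mask, 75.9% at 10 copies and 96.6% with tandem arrays counted in. The share of single-copy CpG-island promoters was 13.8% and 0.694% at 750 and 1500 bp in MIZ-1DPOZ. In MIZ-1WT it was 14.3% and 50.0% at 1500 and 2000 bp, where the peak at Gm26917 remained, and 0.0% with protein-coding start sites or with a local background under 10 fragments. The share of MIZ-1DPOZ peaks with a counterpart was 89.5%, 96.5% and 97.3% at 750, 1500 and 2000 bp, 57.3% with 50% of the peak covered, 34.6% with 50% of both, 68.1% with a counterpart of −log10 q of 5 or more, 43.3% with summits within 100 bp and 6.68% with a counterpart of 1000 bp or more. In MIZ-1WT it was 36.2% with summits within 100 bp. The copy count with tandem arrays, the limit on background and a promoter class without the tandem limit were chosen after seeing the data. No paired analysis was possible because there was 1 ChIP library per genotype. The number of reads is not in the lists, and pileups were not scaled for it. Low peaks cannot be told from absent ones, and copies collapsed in the assembly are counted as single.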
